A study of Mus musculus with 16 samples.

Results

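This account concerns the promoters of 10 genes for chromatin repressors and remodellers: Mbd3, Chd4, Hdac1, Ezh2, Eed, Suz12, Kdm1a, Rest, Trim28 and Smarca4. The members are set by a list of names, with no threshold on a measured value, out of 25479 genes to which a window could be given. For each gene the window of 5000 bp whose midpoint lay nearest the transcription start site (TSS), and within 650 bp of it, was taken from 38053 distinct windows, and with it the 18 of 127646 accessible regions that lie wholly inside those windows. All 10 genes had a window of their own. The data are ATAC-seq profiles, in which a transposase cuts and tags open DNA, from mouse embryonic stem cells of the genotype FOXD3-iKO in L2i medium. Cells received 4HT (tamoxifen), added to deplete the forkhead factor FOXD3, or EtOH (ethanol), with a treatment time of 24 h, and were sorted on their DAPI signal into fractions labelled G1, ES, LS and G2. The 16 libraries form 8 groups of 2, each deposited as 1 column without a replicate number. All values below are therefore read as those of merged libraries and carry no SD between cultures. The labels do not say how the inducible allele is built, which part of it is lost, whether the cells are 1 clone, or what ES and LS stand for.

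Repressor complexes keep genes of other lineages silent in pluripotent cells while remodellers keep the chromatin mobile. NuRD joins a remodelling ATPase (Chd4) with a histone deacetylase (Hdac1), and Mbd3 is the scaffold that holds these parts together. Polycomb repressive complex 2 methylates histone tails through the enzyme Ezh2, with Suz12 and Eed as the core partners that it needs for activity. Kdm1a (LSD1) removes methyl groups from histones and works with CoREST, which the zinc finger protein Rest brings to neuronal genes. Trim28 is the corepressor that KRAB zinc finger proteins recruit to retroviral elements, and Smarca4 (BRG1) is the ATPase of the BAF remodelling complex. What is described here is the accessibility of the promoters of these genes, not the activity of their proteins.

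The sequences before the TSS of 5 members are shown because the results turn on them: Mbd3 and Trim28 had the most accessible windows, Ezh2 the largest estimated difference between treatments, Chd4 the lowest level and Eed the 1 match to a forkhead motif. They are the 250 bases before the start in the RefSeq promoter entry (GRCm38.p6), read 5′ to 3′ along the gene. An entry was found for 8 of the 10 members. For Ezh2 the start used, 47595030, lies inside the annotated gene, which ends at 47595270, so most of its sequence lies within the gene. The starts used for Kdm1a and Smarca4 lie inside the gene as well. Capitals mark matches, in either orientation, to the motifs searched. Coordinates and strands are chr10:80399532-80399781 (minus) for Mbd3, chr7:13023902-13024151 (plus) for Trim28, chr6:47595031-47595280 (minus) for Ezh2, chr6:125095731-125095980 (plus) for Chd4 and chr7:89980977-89981226 (minus) for Eed.
Mbd3: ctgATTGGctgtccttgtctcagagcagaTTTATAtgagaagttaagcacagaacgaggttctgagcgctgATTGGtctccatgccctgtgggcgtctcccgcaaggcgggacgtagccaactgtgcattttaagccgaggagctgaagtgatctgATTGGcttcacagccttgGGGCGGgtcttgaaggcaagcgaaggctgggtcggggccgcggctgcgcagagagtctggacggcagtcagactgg
Trim28: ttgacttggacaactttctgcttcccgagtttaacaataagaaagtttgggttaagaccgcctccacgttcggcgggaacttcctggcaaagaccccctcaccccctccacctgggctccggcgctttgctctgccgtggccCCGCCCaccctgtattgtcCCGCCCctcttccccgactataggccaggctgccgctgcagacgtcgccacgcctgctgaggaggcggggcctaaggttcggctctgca
Ezh2: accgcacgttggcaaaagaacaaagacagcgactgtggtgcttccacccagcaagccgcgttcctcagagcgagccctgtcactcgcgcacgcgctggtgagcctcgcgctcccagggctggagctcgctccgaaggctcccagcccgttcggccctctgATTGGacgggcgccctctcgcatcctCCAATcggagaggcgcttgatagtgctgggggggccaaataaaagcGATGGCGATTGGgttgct
Chd4: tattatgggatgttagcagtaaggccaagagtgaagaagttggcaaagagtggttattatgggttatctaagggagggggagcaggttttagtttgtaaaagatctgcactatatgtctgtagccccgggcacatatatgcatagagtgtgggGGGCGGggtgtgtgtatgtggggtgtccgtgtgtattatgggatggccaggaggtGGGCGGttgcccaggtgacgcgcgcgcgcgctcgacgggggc
Eed: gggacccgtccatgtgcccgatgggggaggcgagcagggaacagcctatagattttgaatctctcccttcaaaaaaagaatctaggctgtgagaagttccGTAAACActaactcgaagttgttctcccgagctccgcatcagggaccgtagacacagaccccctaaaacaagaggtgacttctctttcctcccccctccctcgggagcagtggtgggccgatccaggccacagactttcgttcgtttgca

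A set of 9 short motifs was searched on both strands. The GC box (GGGCGG), known to bind SP and KLF factors, was found in 5 of 8 members (Mbd3, Trim28, Suz12, Chd4 and Smarca4), against 42.6% of 21238 promoters of protein-coding genes. The CCAAT box, known to bind NF-Y, was found in 4 of 8 (Mbd3, Ezh2, Suz12 and Kdm1a), against 35.4%. Mbd3 and Ezh2 held 3 CCAAT boxes each, and the copy nearest the start in Ezh2 adjoined a match to part of the YY1 motif (GATGGCG), found in 2.48% of promoters. The forkhead core (TGTTTAC) stood in 1 of 8, in Eed, 150 bases before the start, against 2.61% of promoters. The TATA letters (TATAAA) were found in Mbd3, against 11.6% of promoters. Part of the NRF1 motif (GCATGCG) was found in Smarca4, against 3.73%. None of the 8 held the ETS letters CCGGAAG, which 8.99% of promoters hold, the E box CACGTG (6.63% of promoters) or part of the CRE, TGACGTC (3.36% of promoters). The E box letters read the same on both strands, no motif searched contains another, and no 2 matches in the 8 members shared a base. These matches describe letters, not bound sites.

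The deposited signal was read as coverage scaled to library size (CPM), averaged over those bases of an interval that hold a read. The labels do not state this averaging. On this reading, the smallest value in a column is the worth of 1 read and implies a depth of 6.78 M to 11.2 M reads. A level is the signal as a multiple of that value, averaged over the 8 columns unless a column is named. All windows have the same length. The window of Foxd3 itself had a level of 1.49 (1.23 to 1.65 across columns), which does not check its loss since the lost part is not stated. Of 10 pluripotency markers, 9 lay above the median window of protein-coding genes (median 1.87, from 1.25 to 2.73), against 2 of 7 fibroblast markers with a level (1.11 to 1.70) and 0 of 5 primitive endoderm markers (1.11 to 1.22).

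Promoters of the 10 genes were more accessible than most, and they spanned a wide range. Their median level was 1.78, against 1.35 for the 17947 windows of protein-coding genes with a read in every column. All 10 lay above that median, 6 lay above the 75th percentile (1.61) and 4 above the 90th (1.99). Mbd3 was highest at 3.51 and Trim28 followed at 3.20. The others were Smarca4 at 2.54, Ezh2 at 2.21, Suz12 at 1.82, Hdac1 at 1.74, Eed at 1.50, Rest at 1.50, Kdm1a at 1.48 and Chd4 at 1.44. Within NuRD the scaffold gene Mbd3 was highest and the ATPase gene Chd4 lowest of the 10, with no overlap between their columns. Within Polycomb repressive complex 2 the mean fell from Ezh2 through Suz12 to Eed, and the columns of the 3 genes overlapped.

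**Figure D1:**
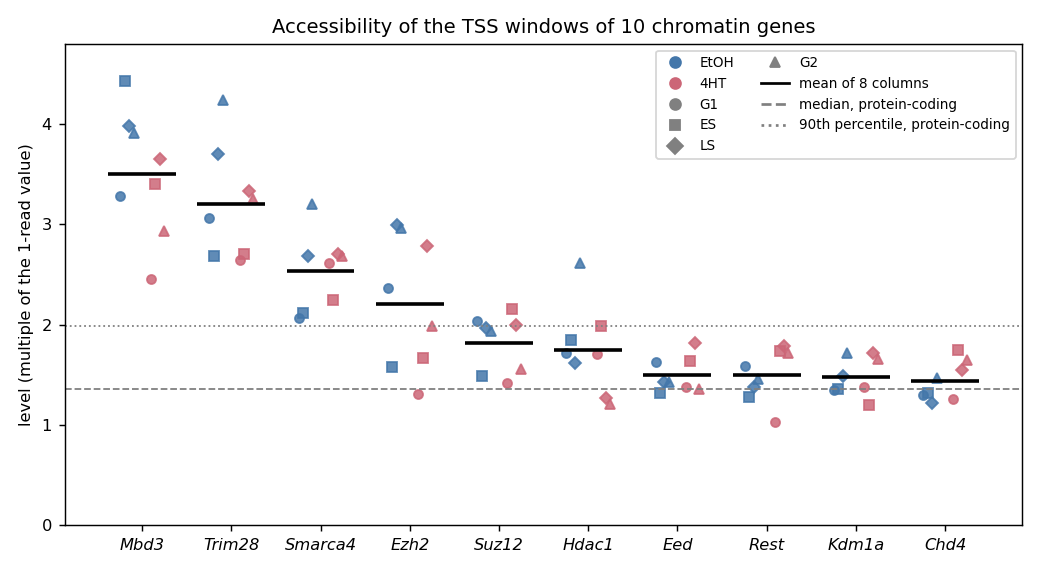
Level of the TSS window of each gene, as a multiple of the 1-read value, in the 8 merged columns (blue EtOH, red 4HT, symbols for the fractions); the bar is the mean of 8 columns, and the dashed and dotted lines are the median (1.35) and the 90th percentile (1.99) of protein-coding windows. Mbd3, Trim28 and Smarca4 lie above Eed, Rest, Kdm1a and Chd4 in every column.

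The top 3 genes and the lowest 4 did not overlap in any column. Mbd3 ran from 2.45 to 4.43 across the 8 columns, Trim28 from 2.64 to 4.24 and Smarca4 from 2.06 to 3.20. None of these values fell to those of the 4 lowest genes, of which the highest were 1.81 for Eed, 1.79 for Rest, 1.72 for Kdm1a and 1.74 for Chd4. Ezh2 varied most in proportion, from 1.31 to 2.99, Suz12 from 1.41 to 2.16 and Hdac1 from 1.21 to 2.61, so these 3 overlapped genes above and below them. Between neighbours in the order, Trim28 was above Smarca4 in 8 of 8 columns, by log2 0.33 (SD 0.16 over the columns). Each of the other 8 neighbouring pairs differed by less than the SD of its difference over the columns, the largest being Smarca4 over Ezh2 by 0.25 (SD 0.40). Levels moved with depth: the median of the 10 genes was highest, 2.28, in EtOH G2, the deepest column at 11.2 M reads, and lowest, 1.39, in 4HT G1, the shallowest at 6.78 M.

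The accessible regions called in these windows lay close around the TSS. The 10 windows held 18 regions, from 1 each for Ezh2, Eed, Suz12, Kdm1a and Smarca4 to 3 each for Hdac1, Chd4 and Rest, with 2 each for Mbd3 and Trim28. Among windows of protein-coding genes, 43.7% held 1 region, 20.2% held 2, 5.65% held 3 and 28.9% held none. In 9 of 10 genes a region spanned the TSS, a share that was not computed for other protein-coding genes. The exception was Rest, whose regions ended 34 bases before the start and began again 171 bases after it. Rest has no promoter entry, so its start was taken from the end of the gene and this gap depends on that choice. The median width was 578 bp, against 252 bp for all regions, and the widest, at Ezh2, measured 1563 bp (chromosome 6, 47594143 to 47595705). Of the 18 regions, 13 had a read in every column, against 30.4% of all regions. All regions include those far from any TSS, and regions at promoters alone were not compared, in width or in reads.

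Levels of the region over the TSS spanned a wider range than window levels, among members whose region there was read in every column. These regions differ in width, from 551 bp at Hdac1 to 1563 bp at Ezh2, so their levels are averages over unlike lengths. The region over the Mbd3 start (chromosome 10, 80399302 to 80399999) had a level of 9.60. It lay at percentile 99.8 of the 38863 regions read in every column, which lie at any distance from a TSS. That of Trim28 (chromosome 7, 13023858 to 13024629) had a level of 6.94 and that of Smarca4 (chromosome 9, 21615738 to 21616599) of 4.66, at percentiles 99.4 and 97.8. Ezh2 stood at 2.98, Suz12 at 2.88 (chromosome 11, 79992511 to 79993360) and Hdac1 at 2.58 (chromosome 4, 129542532 to 129543082). Eed and Kdm1a had regions of 1.88 and 1.78 that cover the start, near the median of 1.61 for all regions read in every column. At Chd4 the region over the start was 113 bp wide and had no read in 4HT G1. Mbd3 and Trim28 each had a second region read in every column, 367 bases downstream (2.68) and 461 bases upstream (2.75) at its near end.

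**Figure D2:**
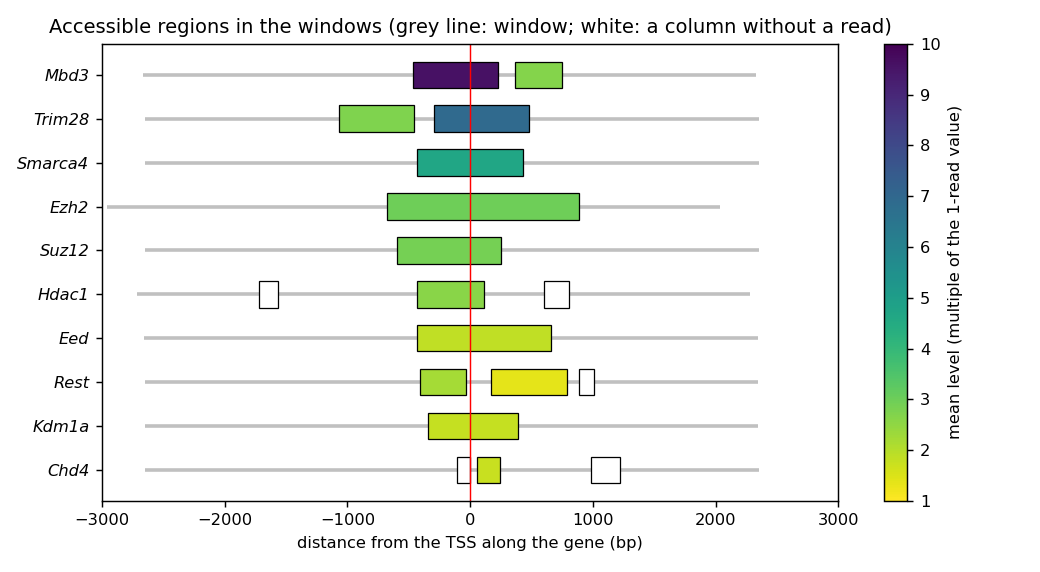
Position of the 18 accessible regions relative to the TSS (0, red line; positive values lie within the gene), with the window as a grey line and the fill giving the mean level as a multiple of the 1-read value. White regions had no read in at least 1 column, and the darkest, over the Mbd3 start, has a level of 9.60.

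Base composition of the promoter went with the level across the genome but did not order the members. Over 14704 windows of protein-coding genes, the number of CG dinucleotides in the 250 bases before the start and the level had a Spearman correlation of 0.58. This is a description across windows that share libraries and depth, and it has no test. The median level rose from 1.18 in windows with 0 to 5 CG dinucleotides to 1.57 with 16 to 25, and stood at 1.46 with 36 or more. The 8 members with a promoter entry held 12 to 37 CG dinucleotides (median 19, against 10 for all 21238 promoters). Mbd3, the most accessible, held only 14 and lay at percentile 99.1 of the 4336 windows with 6 to 15. Suz12 held the most, 37, at percentile 81.9 of 481 windows. Trim28 (17), Smarca4 (25) and Ezh2 (23) lay at percentiles 97.4, 92.5 and 86.7 of 3550 windows with 16 to 25. Eed (59.8), Chd4 (52.0) and Kdm1a (39.7) lay near the middle of their classes, so 5 members stood well above windows of like CG content and 3 did not.

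**Figure D3:**
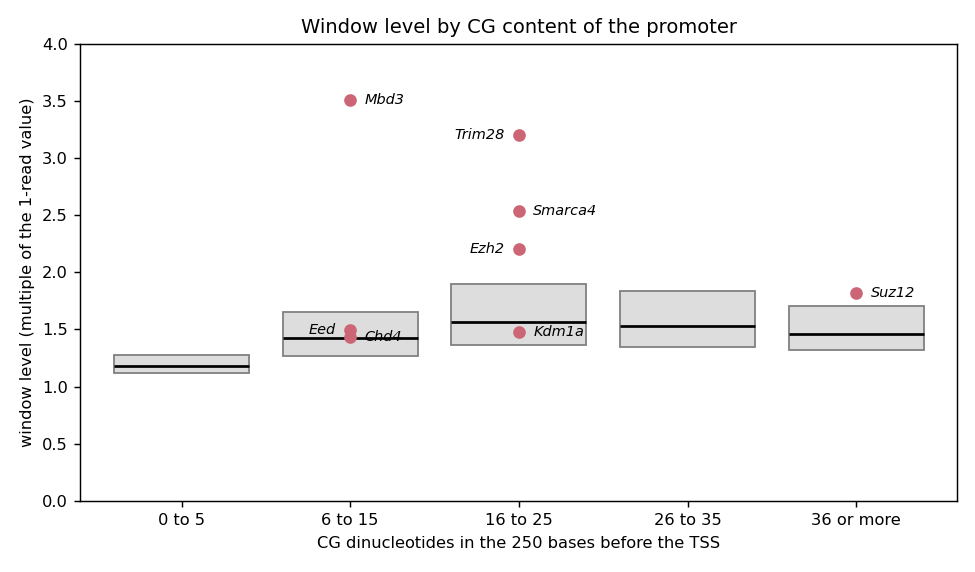
Level of TSS windows (multiple of the 1-read value) by the number of CG dinucleotides in the 250 bases before the TSS: boxes span the quartiles of protein-coding windows with the median as a black line, and red points are the 8 members with a promoter entry. Mbd3 stands at 3.51 in a class whose median is 1.42.

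None of the 10 windows passed the test between 4HT and EtOH. Over the 4 fractions limma called 0 members (adjusted p of 0.05 over 15323 windows), where it called 2 windows in all (0.0131%), 1 of them higher (0.00653%) and 1 lower (0.00653%). The estimates ran from log2 -0.22 for Ezh2 to 0.14 for Chd4, and their median was -0.00, as for all windows (0.00). Of the 10 genes 5 lay above 0 and 5 below, and 50.2% of all windows lay above 0. At an unadjusted p of 0.05, 1 of 10 members passed (Ezh2), against 5.28% of windows. All 10 passed the minimum level of 1.3 and a read in every column. Deposited signals given below are not centred, and whole columns differed. Over all tested windows the median 4HT minus EtOH difference before centring was log2 0.25 in G1 and -0.09 in ES. It was -0.17 in LS and 0.10 in G2. The 4 fractions served as repeats, so the p-values measure the spread between merged columns and not between cultures. In bulk samples, fewer cells with an open promoter and a less open promoter in each cell cannot be told apart.

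Ezh2, the Polycomb methyltransferase gene, had the lowest estimate. Its deposited signal in G1, ES, LS and G2 was 0.193, 0.171, 0.251 and 0.224 in 4HT and 0.237, 0.188, 0.366 and 0.265 in EtOH. The 4HT value was the lower in all 4 fractions as deposited, but the treatments overlapped, since LS was the highest fraction in both. After centring the differences were log2 -0.42, 0.01, -0.24 and -0.24, and the estimate was -0.22 (SE 0.10, 95% interval -0.43 to -0.02, limma adjusted p 0.942). The Ezh2 window also holds the start of the gene F830010H11Rik. Of its partners in Polycomb repressive complex 2, Suz12 was estimated at -0.02 (interval -0.22 to 0.18), below 0 in 3 of 4 fractions but at 0.31 in ES. Eed was estimated at 0.06 (-0.10 to 0.23), with 3 of 4 fractions above 0.

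The NuRD genes gave values in both directions. The Mbd3 signal, in the same order of fractions, was 0.362, 0.349, 0.330 and 0.331 with 4HT and 0.329, 0.529, 0.487 and 0.350 with EtOH. As deposited, the EtOH columns of ES and LS stood above the other 6. After centring Mbd3 was lower in 4HT in 4 of 4 fractions, by log2 -0.06, -0.38, -0.26 and -0.12, a pattern shown by 6.32% of windows, and the estimate was -0.21 (SE 0.11, interval -0.44 to 0.02, limma adjusted p 0.969). Chd4 had a signal of 0.185, 0.179, 0.139 and 0.185 in 4HT and of 0.130, 0.157, 0.148 and 0.131 in EtOH. Only in LS was the deposited 4HT signal the lower, and there the median of all tested windows was lower before centring too. After centring it was higher in 4 of 4 fractions, as were 6.58% of windows, and its lowest 4HT value (-1.99 on the centred log2 scale) lay just above its highest EtOH value (-2.00), as in 1.29% of windows. The estimate was 0.14 (SE 0.08, interval -0.02 to 0.30, limma adjusted p 0.969), at a level of 1.44, close to the 1-read value. Hdac1 had a signal of 0.251, 0.203, 0.115 and 0.136 in 4HT and of 0.172, 0.220, 0.198 and 0.234 in EtOH. Its G2 columns differed most and its estimate of -0.19 (interval -0.39 to 0.02) rested on them: without G2 it was -0.05.

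The other members stayed closer to 0. The Trim28 signal, again from G1 to G2, was 0.390, 0.277, 0.301 and 0.367 with 4HT and 0.308, 0.321, 0.453 and 0.379 with EtOH, where LS was the highest column. Its estimate was -0.08 (interval -0.31 to 0.14), or -0.02 without LS and -0.14 without G1, and its window also holds the start of Gm31649. Smarca4 had a signal of 0.385, 0.230, 0.244 and 0.302 in 4HT and of 0.207, 0.252, 0.328 and 0.286 in EtOH. The G1 pair differed by log2 0.46 and the other 3 pairs by -0.13 to 0.01, so that the estimate of 0.08 (-0.14 to 0.30) became -0.04 without G1. Rest stood at 0.08 (-0.10 to 0.25), with -0.30 in G1, where its 4HT level was 1.02, and 0.13 to 0.25 in the other fractions. Its estimate was 0.20 without G1, 0.03 without ES and 0.02 without G2. Kdm1a stood at 0.01 (-0.15 to 0.18). The lowest end of any of the 10 intervals was -0.44, for Mbd3, and the highest was 0.30, for Smarca4. These ends depend on the scale: corrected for reads that the deposited average hides, Ezh2 and Hdac1 were both estimated at -0.36 and Chd4 at 0.31, with 0 members called.

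**Figure D4:**
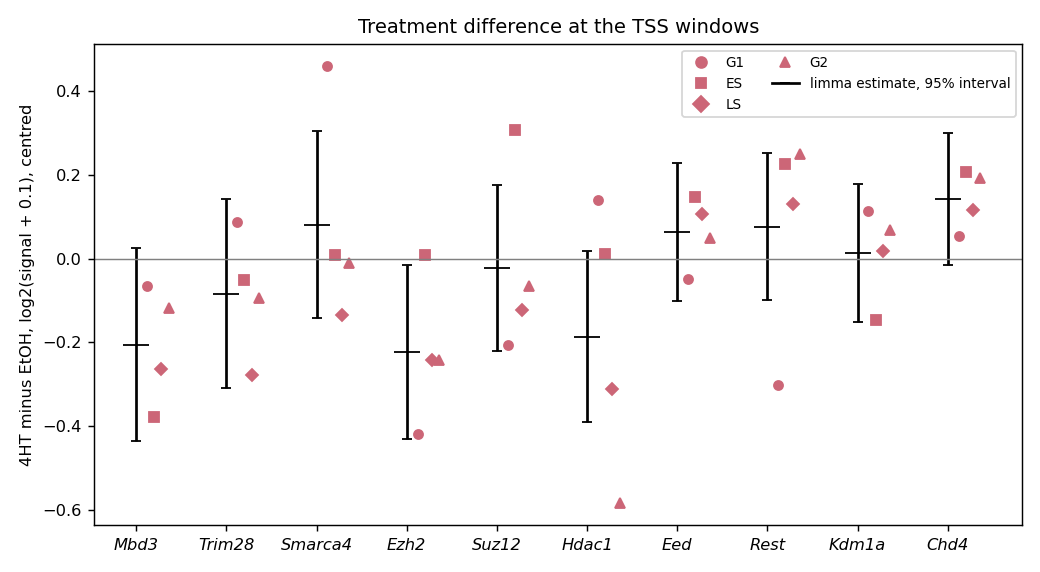
Difference 4HT minus EtOH in centred log2(signal + 0.1) at the TSS window of each gene, in each fraction (red symbols) and as the limma estimate with its 95% interval (black). Estimates run from -0.22 for Ezh2 to 0.14 for Chd4, and the points of every gene except Mbd3 and Chd4 lie on both sides of 0.

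The narrower regions gave the same lack of calls. Values were larger than in the window for some regions, but not for that of Hdac1 (-0.15 against -0.19). Of the 18 regions 9 reached the minimum level of 2, and limma called 0 of them, as of all 11010 regions tested (0%), with 0 of 9 at an unadjusted p of 0.05 against 5.42% of regions. The smallest adjusted p over all regions was 0.218. The Ezh2 region was lower in 4HT in 4 of 4 fractions, by log2 -0.41, -0.19, -0.42 and -0.33, with an estimate of -0.34 (SE 0.19, limma adjusted p 0.934). Regions downstream of the Mbd3 start (-0.36, SE 0.21) and upstream of the Trim28 start (-0.32, SE 0.20) were also lower in 4 of 4 fractions, as were 6.66% of regions. The strongest region, over the Mbd3 start, had a signal of 0.952, 1.10, 0.808 and 0.865 with 4HT (in the order given for Ezh2) and of 1.10, 1.13, 1.22 and 1.14 with EtOH. As deposited the 4HT value was the lower in every fraction, least so in ES, where the difference after centring was 0.05. The estimate was -0.21 (SE 0.14, limma adjusted p 0.934).

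The regions of Rest and Smarca4 went the other way. The region just upstream of the Rest start (chromosome 5, 77265088 to 77265460) had a signal of 0.147, 0.214, 0.396 and 0.417 in 4HT and of 0.119, 0.181, 0.311 and 0.117 in EtOH. It was high in LS of both treatments and in G2 of 4HT alone. The estimate was 0.45 (SE 0.24, interval -0.06 to 0.96, limma adjusted p 0.934), with 4 of 4 fractions above 0, as had 6.69% of regions. The differences in G1, ES, LS and G2 were log2 0.05, 0.20, 0.32 and 1.25, so the estimate leaned on G2. Its level in EtOH G2 was 1.31, close to the 1-read value. The Smarca4 region was also higher in 4 of 4 fractions, from log2 0.07 to 0.60 (estimate 0.21, SE 0.18). The regions of Suz12 (0.04), Hdac1 (-0.15) and Trim28 over its start (-0.09) were of mixed sign. Reads of a region belong to its window too, so regions and windows are not separate evidence.

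Cell cycle fractions did not separate the 10 windows either. In limma contrasts against G1, averaged over treatments, 0 members were called in ES (0.0196% of windows called), in LS (0.0718%) or in G2 (0.0457%). The windows called were all lower in ES, 3 higher (0.0196%) and 8 lower (0.0522%) in LS, and 4 higher (0.0261%) and 3 lower (0.0196%) in G2. At an unadjusted p of 0.05, 1 member passed in ES (6.78% of windows), 1 in LS (6.9%) and 0 in G2 (5.64%). Medians of the 10 genes were -0.01, 0.04 and 0.09 in ES, LS and G2, against 0.00 or -0.00 for all windows, with 5, 8 and 7 genes above 0. In G2 the estimates ran from -0.14 for Eed to 0.18 for Ezh2.

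The 2 members at an unadjusted p of 0.05 were Mbd3 in ES and Ezh2 in LS. Mbd3 was higher in ES than in G1 by log2 0.55 in EtOH and 0.23 in 4HT (estimate 0.39, SE 0.16, interval 0.07 to 0.72, limma adjusted p 0.668). The region over its start had a smaller ES value of 0.25 (SE 0.20). Ezh2 was higher in LS than in G1 by 0.28 in EtOH and 0.46 in 4HT (estimate 0.37, SE 0.15, interval 0.07 to 0.66, limma adjusted p 0.618), and its region by 0.44 (SE 0.27). Hdac1 had the lowest LS estimate, -0.25 (SE 0.14), of which -0.02 was seen in EtOH and -0.47 in 4HT. Smarca4 and Rest took opposite signs in EtOH and 4HT in all 3 contrasts, which rest on the same G1 columns. Smarca4 in LS stood at 0.28 in EtOH and -0.31 in 4HT, and Rest at -0.08 and 0.35. A dependence of the fraction difference on treatment could not be tested with 1 column per group.

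Among regions, limma called 0 of the 9 members in ES (0% of regions called), LS (0%) and G2 (0.0182%). The Rest region upstream of the start had the largest fraction value, 0.88 in LS against G1 (SE 0.34, limma adjusted p 0.613), the 1 member region at an unadjusted p of 0.05, against 7.28% of regions in that contrast. Of the ES and G2 contrasts, none of the 9 passed that level, against 7.13% and 5.9% of regions.

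**Figure D5:**
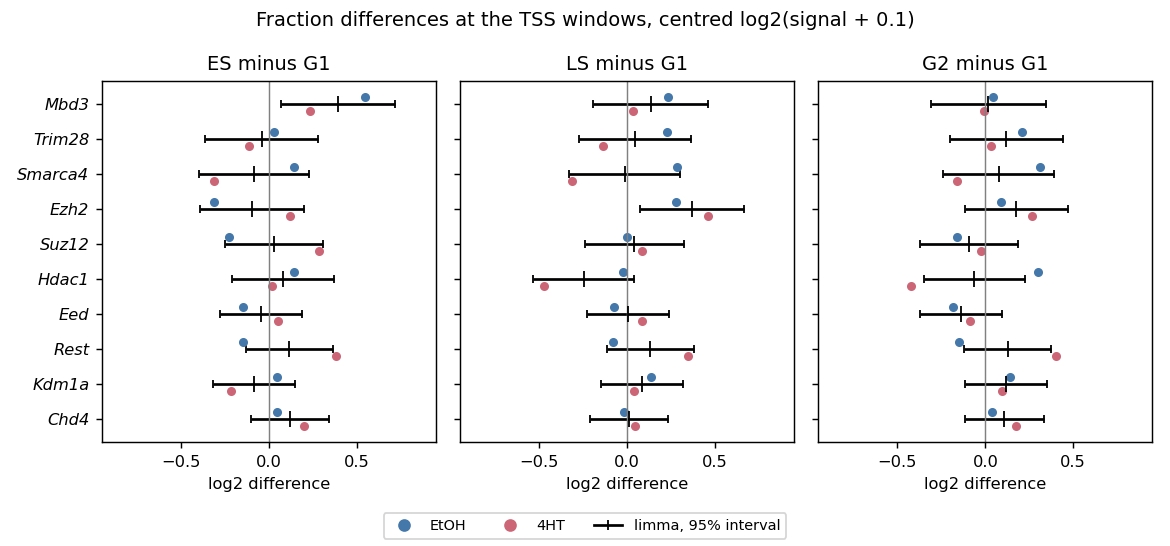
Differences of ES, LS and G2 from G1 in centred log2(signal + 0.1) at the 10 TSS windows, within EtOH (blue), within 4HT (red) and as the limma estimate with its 95% interval (black). The largest estimates are 0.39 for Mbd3 in ES and 0.37 for Ezh2 in LS, and Smarca4 and Rest lie on opposite sides of 0 in the 2 treatments.

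The wider complexes to which these genes belong were described from a list of 103 genes in 8 partly overlapping complexes, the 10 members included. Of these, 93 had a window and 88 were tested. Of the 88, limma called 0 as higher and 0 as lower in 4HT, in ES, in LS and in G2. At an unadjusted p of 0.05, 4, 7, 8 and 3 passed in these 4 contrasts, close to the shares over all windows (5.28%, 6.78%, 6.9% and 5.64%). Of the 78 tested genes outside the 10, the counts were 3, 6, 7 and 3. The median treatment difference was -0.00, with 43 of 88 above 0, against 50.2% of all windows. By level, 80 of 93 windows lay above the protein-coding median, and 70 of 83 without the members. Medians were 1.84 for TRIM28 and the heterochromatin genes, 1.72 for CoREST and REST, 1.71 for NuRD, 1.66 for Polycomb repressive complex 2, 1.65 for SIN3 and NCOR, 1.55 for BAF, 1.53 for Polycomb repressive complex 1 and 1.49 for the ISWI, INO80 and CHD remodellers. The highest window of the list was that of Gatad2a, another NuRD subunit, at 5.45.

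The profiles of the 10 genes across the 8 columns had little in common. Over the 45 pairs the median Pearson r of the centred log2 values was -0.14, with 19 pairs above 0. The most alike were Trim28 and Smarca4 (0.62) and the least alike Trim28 and Eed (-0.69). Of 78 listed genes outside the 10, the profile nearest to Mbd3 was that of Ino80 (0.75), the nearest to Trim28 that of Baz1b (0.82) and the nearest to Smarca4 that of Chd7 (0.87). These are descriptions over 8 columns that share treatments and fractions, and picking the highest of many gives high values.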

How the data were processed

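The 16 ATAC-seq libraries were deposited as 8 columns, 1 per treatment and fraction. The file names give cpm. Per the file headers, the columns are marked mRp and carry no replicate number, so they were read as merged libraries. The deposited signal is coverage averaged over bases with a read, as judged from its shared smallest value. The build mm10 and the tools featureCounts and DESeq2 are named, without roles, in the submitters' processing notes. The aligner and coverage program are not given in the sources used here.

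Windows with a value in every column and a mean level of at least 1.3 (regions: 2) were transformed as log2(signal + 0.1), centred by cyclic loess and fitted with treatment and fraction in limma 3.58.1 (R 4.3.3; 3 residual degrees of freedom, intensity trend, robust moderation), with Benjamini-Hochberg adjustment over all tested intervals. Low folds are understated on this scale. Starts came from a RefSeq table of GRCm38.p6. For Hdac1 and Rest, which have no promoter entry, the gene end with a window within 650 bp was used. The fit was tested on simulated data. All 10 members were named. Genes outside them were named where a result turned on them or by highest Pearson r with 1 of the 3 highest members. Members, lists and settings were chosen with earlier results of these data known. The correction for reads that such an average hides and the shown sequences were chosen after seeing the values.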

Additional observations from a re-analysis of the deposited data

How the results depend on the processing

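No paired analysis was possible because the deposited columns carry no replicate numbers, and for the same reason no single replicate could be left out. Under every alternative run, 0 of the tested members were called in any of the 4 contrasts. Of 304 refitted member differences, 293 kept their sign and 11 changed it, all with a reported estimate of at most 0.08 in size. The smallest adjusted p among them was 0.420. Ezh2 between treatments ran from -0.36 to -0.10, Mbd3 from -0.25 to -0.12, Hdac1 from -0.36 to -0.05, Trim28 from -0.14 to -0.02, Eed from 0.02 to 0.13, Rest from 0.02 to 0.20 and Chd4 from 0.06 to 0.31. Such ranges mix scales. For Ezh2 and Chd4 the larger size came with the hidden-read correction and the smaller with a pseudocount of 0.5, which shrinks log2 values.

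Signs changed as follows. Without the G1 fraction, Suz12 (0.0400), Kdm1a (-0.0192) and Smarca4 (-0.0449) changed between treatments, as did Suz12 without the LS fraction (0.0117) and Kdm1a without the G2 fraction (-0.00408). As deposited without centring, Suz12 in ES (-0.0399), Chd4 in LS (-0.0719), Eed in LS (-0.0699) and Mbd3 in G2 (-0.0164) changed. Smarca4 in LS changed with median centring (0.0636) and Eed in LS with the hidden-read correction (-0.00294).

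Counts over all windows moved more. Between treatments, 2 windows became 0 with no filter on level, 0 as deposited, 0 without the G2 fraction, 1 with a mean level of at least 1.6, 1 without trend or robust moderation, 1 without the G1 fraction and 4 without the ES fraction. In ES, 3 became 1 with no filter and 0 as deposited. In LS, 11 became 4 with no filter, 7 with a level of at least 1.6, 0 as deposited and 6 without trend or robust moderation. In G2, 7 became 4 as deposited and 4 with the correction. The causes were not tested. Counting regions that only overlap a window left their number at 18. With a level of at least 1.6 only the 6 most accessible members were tested, and their median treatment difference was -0.14. A weak window cannot fall below the 1-read value, so losses at Chd4, Kdm1a, Rest and Eed can be understated.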
